A study of Homo sapiens with 24 samples.

Results

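SK-N-AS cells in which CRISPR interference (CRISPRi) lowered FAM167A were compared with SK-N-AS cells that carried a non-targeting guide. The comparison uses 8 of the 24 RNA sequencing libraries of the series, chosen by the cell line and method named in their labels: 4 knockdown libraries (KD) and 4 non-targeting control libraries (NTC). The series lowered FAM167A, also called DIORA1, by CRISPRi in SK-N-AS and SK-N-SH and by pooled siRNA in SK-N-SH; the siRNA libraries are not analysed here. The KD group expressed SpCas9-KRAB, a Cas9 fused to the KRAB repressor, with the guide named sgDIORA1, and the NTC group expressed the same fusion with the guide named sgGal4, which targets a yeast sequence. SK-N-AS is a human neuroblastoma line. Guide sequences were not used here, and the labels do not say whether the cells were clones or mixed populations. The labels do not say that replicates were separate cultures, so p-values measure the spread between these libraries, which may be technical.

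FAM167A lies beside BLK and encodes a small, largely disordered protein. The MRCK kinases, the products of CDC42BPA, CDC42BPB and CDC42BPG, act downstream of the GTPase CDC42 on myosin light chain and actin, and were examined with it. In CRISPRi the KRAB domain recruits repressive chromatin around the guide's target, usually at a promoter, so a gene loses transcription rather than sequence. Neuroblastoma cells occupy a range between an adrenergic state, marked by HAND2, GATA3 and the catecholamine genes, and a mesenchymal state, marked by PRRX1, VIM and matrix genes.

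Reads assigned to genes numbered from 54538037 to 104455853 in the KD libraries and from 29985858 to 81825474 in the NTC libraries. Counts were divided by TMM-scaled library size to give CPM, the level used throughout, which is not corrected for transcript length. The log2 fold change, KD over NTC, is given with its standard error, and a gene rose or fell where edgeR's quasi-likelihood test gave a Benjamini-Hochberg adjusted p under 0.05 over all genes tested. NTC library 2 had the lowest total and stood apart. On all 19277 tested genes its mean distance from the other controls was 0.534 (root mean square, log2 CPM), against 0.436 to 0.454 for the other 3 controls, and it lay alone on the second principal component. Over the 12649 genes that average 1 log2 CPM or more the distances shrank to 0.156 for NTC library 2 and 0.131 to 0.143 for the other controls. With every library thinned at random to the lowest total as well, NTC library 2 lay at 0.166 and NTC library 1 at 0.163. With thinning alone, over 16772 tested genes, NTC library 2 still lay apart, at 0.357 against 0.325 to 0.335 for the other controls.

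**Figure D1:**
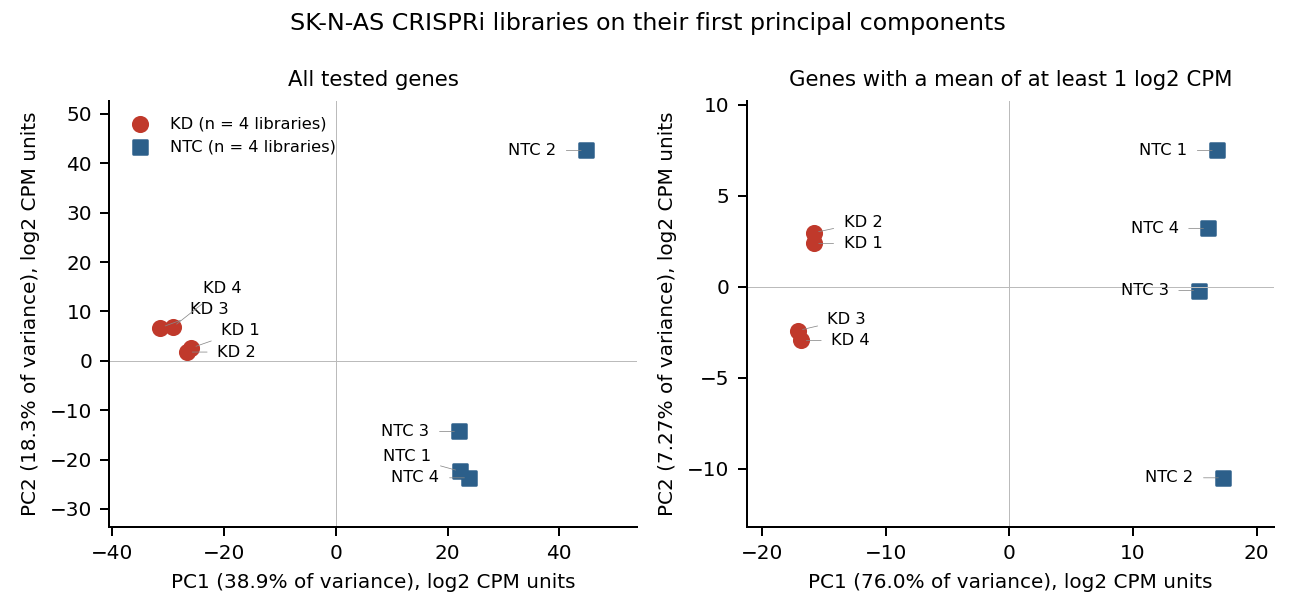
First and second principal components of log2 CPM for the 8 libraries, over all tested genes (left) and over genes averaging 1 log2 CPM or more (right). Circles are KD and squares NTC libraries. On the left NTC library 2 has a second component of 42.6, against -14.3 to -23.7 for the other controls. On the right KD and NTC separate along the first component, which holds 76.0% of the variance.

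Of the markers of the line, HAND2, a transcription factor of sympathetic neuroblasts, stood at 609, 620.2, 587 and 615 CPM in the KD libraries and 619, 613, 595 and 622 CPM in the NTC libraries. GATA3, another such factor, stood at 126, 126, 118 and 122 CPM in KD and 129, 126, 118 and 129.9 CPM in NTC. The mesenchymal factor PRRX1 stood at 479, 483, 485 and 489.6 CPM in KD and 410.5, 413, 419 and 409 CPM in NTC. Markers of both states were therefore well expressed in both groups, while TH, the rate-limiting enzyme of catecholamine synthesis, stayed under 1 CPM in all 8 libraries.

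The target, FAM167A, lies on chromosome 8 from 11421476 to 11475908 on the minus strand (GRCh38, ENSG00000154319). It had 11, 10.3, 9.17 and 10.3 CPM in the KD libraries, against 98.7, 90.8, 93.8 and 97.2 CPM in the NTC libraries. All KD libraries lay far below all NTC libraries, and 10.7% of the NTC mean remained (log2 fold change -3.22 ± 0.05, adjusted p = 2.9e-33). Among the 19277 genes, 5904 (30.6%) changed, 2923 upward (15.2%) and 2981 downward (15.5%). Changes of at least 2-fold were fewer, 366 upward (1.90%) and 210 downward (1.09%); with a filter at 1 CPM in 4 libraries, which tests 14036 genes, they were 166 and 98. Across all 19277 genes the log2 fold change had a median of -0.0024. Without NTC library 2, 5900 of 20210 tested genes changed, 2889 upward and 3011 downward, and 5426 of the 5904 were called again. Protein-coding genes made up 13671 of those tested, with 2521 up and 2753 down; of 4464 long non-coding RNA genes 364 rose and 201 fell.

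**Figure D2:**
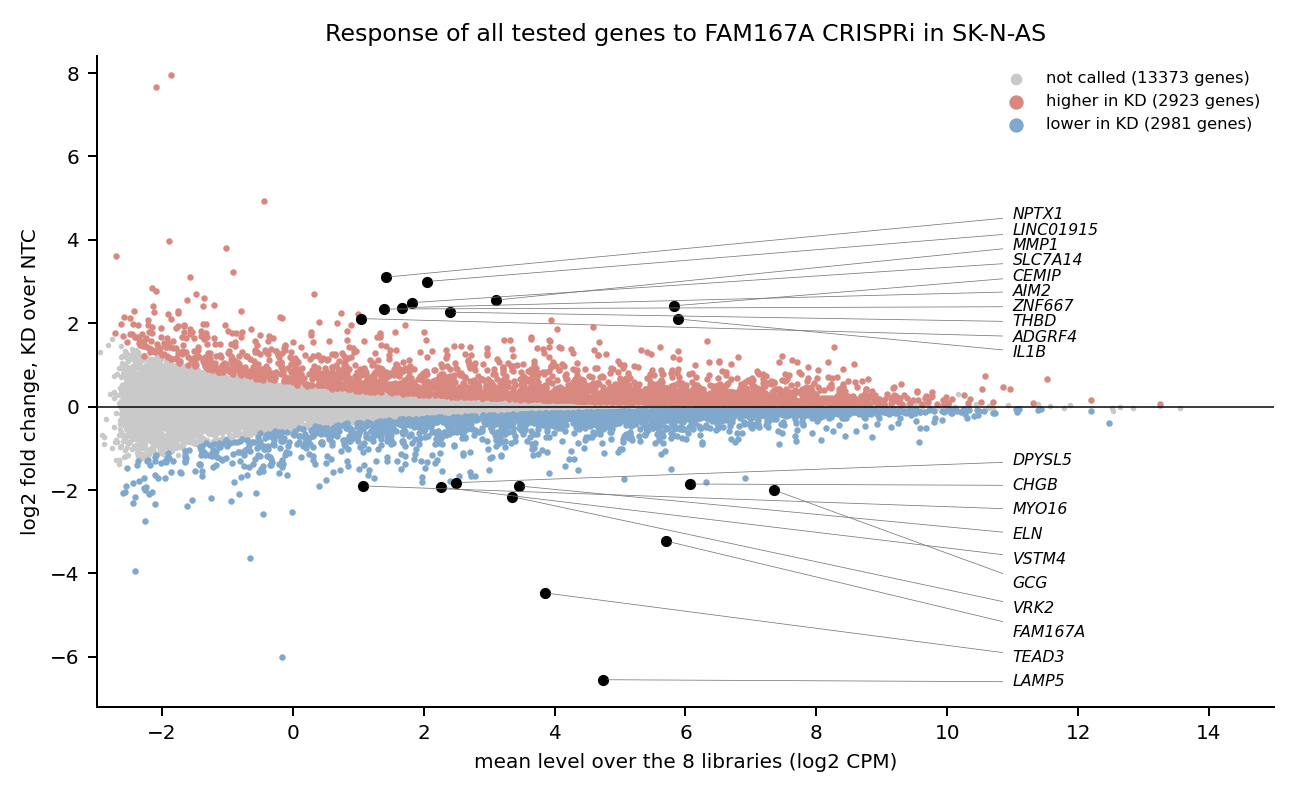
Log2 fold change, KD over NTC, against the mean level over the 8 libraries in log2 CPM for the 19277 tested genes. Red points rose, blue points fell and grey points were not called. Black points with names are 10 leading rises and 10 leading falls, FAM167A included. They are the largest among called genes with a symbol, an average of 1 log2 CPM or more and no overlap between groups. LAMP5 and TEAD3 lie below the target at -6.55 and -4.47.

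FAM167A was not the gene with the largest fall. LAMP5, which encodes a lysosome-associated membrane protein best known from neurons, had 0.665, 0.576, 0.510 and 0.520 CPM in the KD libraries, against 53.1, 54.3, 56.2 and 53 CPM in the NTC libraries. The fall was 93.6-fold (log2 fold change -6.55 ± 0.08, adjusted p = 2.96e-36), so nearly all LAMP5 mRNA was missing from every KD library. TEAD3, a DNA-binding partner of the coactivators YAP and TAZ, had 1.31, 1.34, 0.802 and 1.67 CPM in the KD libraries, against 30.8, 24.9, 29.4 and 28.9 CPM in the NTC libraries. It fell 22.1-fold (log2 fold change -4.47 ± 0.10, adjusted p = 5.26e-25), again with no overlap between the groups. The antisense gene LAMP5-AS1, chosen after its values were seen, runs the other way across the start of LAMP5 (chromosome 20, 9505177 to 9514998, minus strand). It fell with LAMP5, with 8 reads in the 4 KD libraries together and 460 in the 4 NTC libraries. Whether counting used the strand is not stated, so reads of a gene and its antisense partner may not be told apart.

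The 250 bases before the start of LAMP5 and of TEAD3 are shown because these genes fell more than the target; both are from the RefSeq promoter table (GRCh38.p14). The LAMP5 stretch is chr20:9514340-9514589, plus strand, with 47.6% G and C, and the TEAD3 stretch is chr6:35497080-35497329, minus strand, with 84.0% G and C, where the median over all 35116 promoter windows was 58.0%. Capitals mark the longest run of bases the stretches share, which is 8 bases. This run occurs, on either strand, in 1.01% of all such windows. That share is for this run alone. How often a pair of windows shares some run of 8 bases was not examined, so the match is not shown to be unusual.
LAMP5: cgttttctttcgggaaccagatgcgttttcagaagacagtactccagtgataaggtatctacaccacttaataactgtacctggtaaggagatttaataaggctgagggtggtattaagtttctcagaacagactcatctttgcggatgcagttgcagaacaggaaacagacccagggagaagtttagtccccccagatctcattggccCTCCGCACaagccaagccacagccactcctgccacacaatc
TEAD3: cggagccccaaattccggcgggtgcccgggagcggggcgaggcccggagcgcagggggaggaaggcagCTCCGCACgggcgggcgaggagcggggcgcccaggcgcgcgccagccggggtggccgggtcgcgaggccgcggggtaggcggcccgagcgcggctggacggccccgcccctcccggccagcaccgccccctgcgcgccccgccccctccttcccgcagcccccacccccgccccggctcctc
Neither stretch held the TEAD motif GGAATG, the AP-1 motif TGANTCA or the CRE motif TGACGTCA on either strand.

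The neighbours of both genes, chosen after their values were seen, moved far less. On chromosome 20, PLCB4, which encodes a phospholipase C and lies next to LAMP5, fell by 0.53 on the log2 scale, and ANKEF1 stood at -0.18 ± 0.07 (adjusted p = 0.0512). On chromosome 6, the ribosomal protein gene RPL10A fell by 0.14 and the immunophilin gene FKBP5 by 0.26 on the log2 scale, on either side of TEAD3. At 8p23.1, of 17 tested genes in the list of FAM167A and its neighbours 5 rose (29.4%) and 3 fell (17.6%), FAM167A included. Over all tested genes 15.2% rose and 15.5% fell. CTSB, a lysosomal protease gene, rose (0.50 ± 0.03), as did GATA4, a transcription factor gene of heart and endoderm (0.35 ± 0.03). PPP1R3B, a regulatory subunit gene of glycogen metabolism, fell (-0.32 ± 0.04). FAM167A-AS1, antisense to the target, had 1.18, 1.07, 1.06 and 0.555 CPM in the KD libraries, against 0.542, 0.133, 0.280 and 0.130 CPM in the NTC libraries. It rose (log2 fold change 1.73 ± 0.33, adjusted p = 6.83e-05) at a level near 1 CPM, and the lowest KD library stood just above the highest NTC library. The paralogue FAM167B did not pass (log2 fold change -0.57 ± 0.49, adjusted p = 0.422), and the neighbouring kinase gene BLK, with 30 reads in KD and 15 in NTC, was too low to be tested.

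GCG, the proglucagon gene, had 61.5, 65.3, 66.4 and 70.4 CPM in the KD libraries, against 257, 276, 263 and 260.2 CPM in the NTC libraries. CHGB, a granin of dense-core secretory vesicles, had 26.7, 30.8, 30.6 and 29.1 CPM in the KD libraries, against 107, 112, 106 and 99.3 CPM in the NTC libraries. Both were abundant in control cells and fell 4.01-fold (adjusted p = 2.51e-31) and 3.62-fold (adjusted p = 2.04e-27), with no overlap between the groups. DPYSL5, a collapsin response mediator of growing neurites, had 2.56, 2.65, 1.93 and 3.05 CPM in the KD libraries, against 9.35, 8.53, 8.76 and 9.49 CPM in the NTC libraries. MYO16, an unconventional myosin of neurons, had 0.789, 0.960, 0.802 and 1.11 CPM in the KD libraries, against 3.69, 3.63, 3.46 and 2.93 CPM in the NTC libraries. They fell 3.54-fold and 3.73-fold (adjusted p = 1.09e-16 and 1.76e-12). ELN, which encodes elastin, had 4.56, 5.07, 4.08 and 5.13 CPM in the KD libraries, against 19.8, 16.7, 16.7 and 17.4 CPM in the NTC libraries and fell 3.74-fold (adjusted p = 2.17e-20). VRK2, a serine/threonine kinase gene, fell 4.47-fold to 3.84 ± 0.399 CPM in KD, against 17.1 ± 1.04 CPM in NTC (SD, n = 4 each). VSTM4, which encodes an immunoglobulin-domain membrane protein, fell 3.81-fold. These falls were named on condition that every KD library lay below every NTC library, so that separation was fixed by the choice. It held for 2821 (14.6%) of all tested genes.

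Among the largest rises, CEMIP and IL1B had the highest levels. CEMIP, which encodes a protein that breaks down hyaluronan, had 88.3, 95.6, 99 and 96.3 CPM in the KD libraries, against 18.1, 16.3, 18 and 18 CPM in the NTC libraries. It rose 5.35-fold (log2 fold change 2.42 ± 0.04, adjusted p = 1.33e-30). IL1B, the gene of the inflammatory cytokine interleukin-1 beta, had 90.2, 97.6, 100.1 and 93.3 CPM in the KD libraries, against 21.8, 23.2, 21.5 and 22.7 CPM in the NTC libraries, a rise of 4.29-fold (log2 fold change 2.10 ± 0.04, adjusted p = 1.27e-29). The groups did not overlap, and the KD libraries of each gene lay within a narrow band. MMP1, the interstitial collagenase, had 13.6, 13.3, 15.3 and 14.5 CPM in the KD libraries, against 2.36, 2.00, 2.90 and 2.11 CPM in the NTC libraries and rose 5.88-fold (adjusted p = 6.96e-22). THBD, which encodes the anticoagulant receptor thrombomodulin, had 7.86, 9.22, 7.80 and 8.22 CPM in the KD libraries, against 1.71, 1.67, 1.83 and 1.66 CPM in the NTC libraries and rose 4.81-fold (adjusted p = 2.78e-19).

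The remaining leading rises started from low control levels. NPTX1, a neuronal pentraxin gene, had 4.04, 4.96, 4.67 and 4.11 CPM in the KD libraries, against 0.434, 0.533, 0.633 and 0.455 CPM in the NTC libraries, and its 8.60-fold rise was the highest of the 10 (adjusted p = 7.95e-18). AIM2, a sensor of cytosolic DNA, had 5.47, 4.50, 5.78 and 4.61 CPM in the KD libraries, against 1.14, 1.13, 0.998 and 0.683 CPM in the NTC libraries and rose 5.18-fold. The long non-coding RNA LINC01915 rose 8.01-fold, SLC7A14, which encodes a lysosomal amino acid transporter-like protein, 5.64-fold, and the adhesion receptor gene ADGRF4 4.32-fold (adjusted p = 4e-20, 2.05e-18 and 4.71e-13). ZNF667, a zinc finger gene, rose to 4.13 ± 0.313 CPM in KD, against 0.789 ± 0.143 CPM in NTC (SD, n = 4 each; 5.07-fold). ZNF667-AS1, chosen after its values were seen, lies head to head with it and rose 3.41-fold; with the strand setting unknown, their reads may not be told apart where they overlap. The 10 genes were named on condition that every KD library lay above every NTC library, so their separation is no added result. It held for 2781 (14.4%) of all tested genes.

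**Figure D3:**
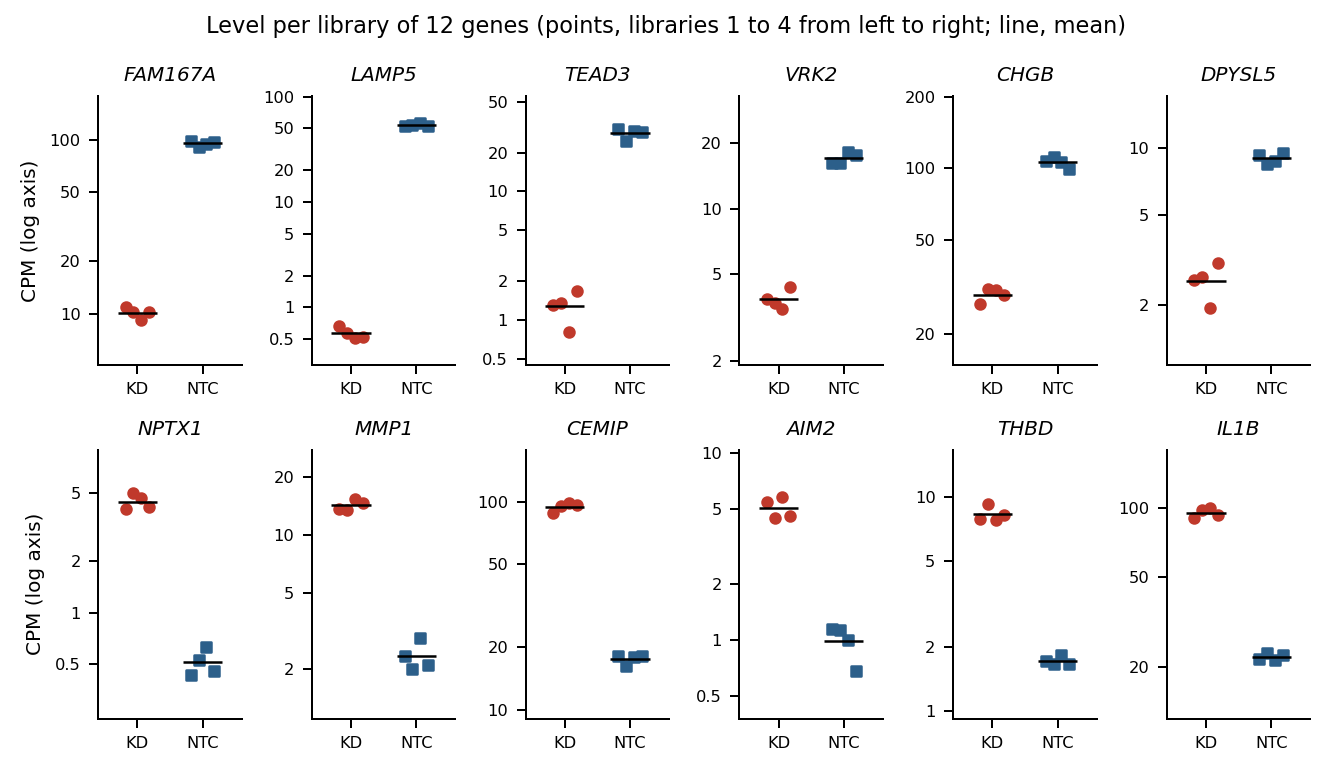
Level in CPM, on a log axis, of 12 of the leading genes in each library, KD left and NTC right; points are single libraries and lines are means (n = 4 each). The upper panels show 6 genes that fell and the lower panels 6 that rose. The 12 were taken from genes chosen for having no overlap between KD and NTC libraries.

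AP-1 sites, bound by FOS and JUN family factors, were searched in the promoter windows (250 bases before to 50 bases after each start, RefSeq, GRCh38.p14) as TGANTCA on either strand. A match was present in 11.2% of the 286 windows of genes that rose at least 2-fold, 4.81% of the 208 windows of genes that fell at least 2-fold, 5.59% of the 17678 windows of all tested genes and 7.71% of all 35116 windows. The CRE motif TGACGTCA was present in 2.45%, 1.44%, 2.75% and 1.85% of these sets in the same order. For the TEAD motif GGAATG the shares were 11.5%, 16.3%, 11.6% and 14%. Windows were at hand for 201 of the 366 risen genes and 123 of the 210 fallen genes. Of the 10 leading rises NPTX1, MMP1 and THBD were not searched, and AIM2 and ADGRF4 held AP-1 matches before their starts, which begin 155 bases before the start of AIM2 and 123 and 43 bases before that of ADGRF4; they are shown with their flanks, and capitals mark the match. The AIM2 stretch is chr1:159076888-159076948, minus strand, and the ADGRF4 stretches are chr6:47698430-47698490 and chr6:47698510-47698570, plus strand. The starts are those of the first RefSeq window of each gene. In the annotation of the counts AIM2 runs from 159056129 to 159187843 and ADGRF4 from 47685864 to 47722021. The stretches therefore lie inside the counted genes, away from the starts given there. A match is a string of letters and not evidence of binding.
AIM2: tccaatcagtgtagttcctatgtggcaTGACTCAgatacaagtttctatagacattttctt
ADGRF4, far match: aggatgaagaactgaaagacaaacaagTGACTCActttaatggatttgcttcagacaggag
ADGRF4, near match: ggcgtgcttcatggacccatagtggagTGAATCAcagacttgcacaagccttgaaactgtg

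Inflammatory genes rose together. NF-kB is a family of transcription factors held in the cytoplasm by inhibitors until a signal such as interleukin-1 frees them, and many of its targets are cytokines and the inhibitors themselves. Of 34 tested NF-kB and inflammatory genes 29 rose and none fell, with a median log2 fold change of 0.59, where 15.2% of all tested genes rose and their median was -0.0024. Without NTC library 2 the count was again 29 up and 0 down. The shares over all tested genes, 15.2% up and 15.5% down, are the background of every list count that follows. Beside IL1B, the members with the smallest adjusted p were C3, SOD2 and CXCL12. C3, the central complement component, had 434, 449.5, 462 and 439 CPM in the KD libraries, against 174, 162, 172 and 158 CPM in the NTC libraries and rose 2.67-fold (adjusted p = 9.06e-29). SOD2, the mitochondrial superoxide dismutase, had 241, 241, 264 and 249 CPM in the KD libraries, against 104, 108, 108 and 107 CPM in the NTC libraries and rose 2.33-fold (adjusted p = 1.88e-26). CXCL12, a chemokine that acts through CXCR4, had 38, 36.8, 36.9 and 37.5 CPM in the KD libraries, against 9.71, 9.60, 9.99 and 10.5 CPM in the NTC libraries and rose 3.74-fold (adjusted p = 1.75e-25). All 3 genes stood more than 2-fold above control in every KD library.

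The list covers the pathway from ligands to inhibitors, and members named in this paragraph were chosen after their values were seen. Of the cytokine and chemokine genes, CXCL8 (interleukin-8) rose by 1.57 ± 0.07, CXCL10 by 1.22 ± 0.22, CCL20 by 1.23 ± 0.18, CCL2 by 0.30 ± 0.03 and LIF by 0.67 ± 0.04 on the log2 scale. CCL5 showed the largest estimate, 2.42 ± 0.52, from levels of at most 0.370 CPM. PTGS2, the inducible cyclooxygenase, had 33.4, 31.6, 41.2 and 34.5 CPM in the KD libraries, against 14.7, 13.4, 15.3 and 15.8 CPM in the NTC libraries. Among the transcription factor subunits NFKB1 rose by 0.38 ± 0.03, NFKB2 by 0.35 ± 0.03, RELB by 0.38 ± 0.05 and REL by 0.19 ± 0.06. The inhibitors NFKBIA (0.32 ± 0.03), NFKBIE (0.20 ± 0.05), TNFAIP3 (0.41 ± 0.08) and TNIP1 (0.43 ± 0.03) also rose. The subunit RELA (-0.02 ± 0.03, adjusted p = 0.752) and the inhibitor NFKBIB (-0.04 ± 0.05, adjusted p = 0.603) did not pass. The kappaB consensus was present in 43.6% of the 39 promoter windows of this list and in 13.3% of the windows of all tested genes. The list was made of genes known for NF-kB, so its share says nothing about the response. In windows of genes that rose at least 2-fold the share was 16.1%, and in those that fell at least 2-fold 17.3%. This motif was added after the list's values were seen.

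Other defence lists had lower medians. Of 21 tested MHC class I antigen presentation genes 14 rose and 1 fell (median 0.14). They include HLA-B (0.45 ± 0.03), HLA-E (0.44 ± 0.04), the peptide-trimming protease gene ERAP1 (0.44 ± 0.04) and B2M, the invariant light chain (0.30 ± 0.03). Of 40 tested interferon response genes 14 rose (35%) and 4 fell (10%), against 15.2% and 15.5% of all tested genes (median of the list 0.09). IFI16, a DNA sensor of the same family as AIM2, had 115, 118, 121 and 123 CPM in the KD libraries, against 40.2, 41.2, 39 and 39.1 CPM in the NTC libraries and rose 3.00-fold (adjusted p = 3.57e-28). The next members were smaller, with IFITM2 at 0.41 ± 0.05, STAT2 at 0.27 ± 0.03 and IFITM3 at 0.21 ± 0.03.

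Adrenergic identity genes fell and most mesenchymal identity genes rose. Of 28 tested adrenergic genes 22 fell and 1 rose (median -0.40), where 15.5% of all tested genes fell. RET, the receptor of GDNF family ligands, had 549, 543, 536 and 533 CPM in the KD libraries, against 982, 984, 960.5 and 983 CPM in the NTC libraries. It fell 1.81-fold (adjusted p = 1.24e-25). TFAP2B, a neural crest transcription factor gene, had 53.4, 54, 55.5 and 55.3 CPM in the KD libraries, against 97, 97.7, 99.9 and 99.4 CPM in the NTC libraries, a fall of 1.81-fold (adjusted p = 3.55e-21). SLC6A2, the noradrenaline transporter, had 11.8, 12, 12.7 and 10.7 CPM in the KD libraries, against 29.1, 31.6, 26.8 and 26.2 CPM in the NTC libraries and fell 2.39-fold (adjusted p = 2.95e-18). None of these genes, nor CHGB above, overlapped between the groups. DBH, a defining marker on the list and the enzyme that makes noradrenaline, fell by 1.15 on the log2 scale. The summed level of the list's genes was 3330 to 3470 CPM in the KD libraries, against 4310 to 4440 CPM in the NTC libraries. In bulk RNA fewer cells of a type and less RNA per cell cannot be told apart.

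Of 32 tested mesenchymal genes 21 rose and 5 fell (median 0.34). IFI16 led by adjusted p, followed by NT5E, the cell-surface nucleotidase CD73, with 157, 160.0, 159 and 163 CPM in the KD libraries, against 98.9, 99.2, 105 and 104 CPM in the NTC libraries (1.57-fold, adjusted p = 6.99e-19). Of the defining markers, CD44, the hyaluronan receptor, rose by 0.38 ± 0.03, SNAI2, a transcription factor of epithelial-mesenchymal transition, by 0.55 ± 0.04, and FOSL1, an AP-1 subunit, by 0.40 ± 0.03 on the log2 scale. Among the 5 members that fell, SOX9 had 40.5, 42.7, 40.6 and 40.2 CPM in the KD libraries, against 65.6, 68.5, 67.1 and 74.2 CPM in the NTC libraries and TWIST1 had 82.1, 77, 69.7 and 76.7 CPM in the KD libraries, against 132, 126, 125 and 138 CPM in the NTC libraries. Both are transcription factors of the neural crest and mesenchyme, and both fell (1.68-fold and 1.71-fold, adjusted p = 4.39e-17 and 4.96e-17). Without NTC library 2 the counts were 1 up and 22 down of 29 adrenergic genes and 20 up and 5 down of 32 mesenchymal genes.

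**Figure D4:**
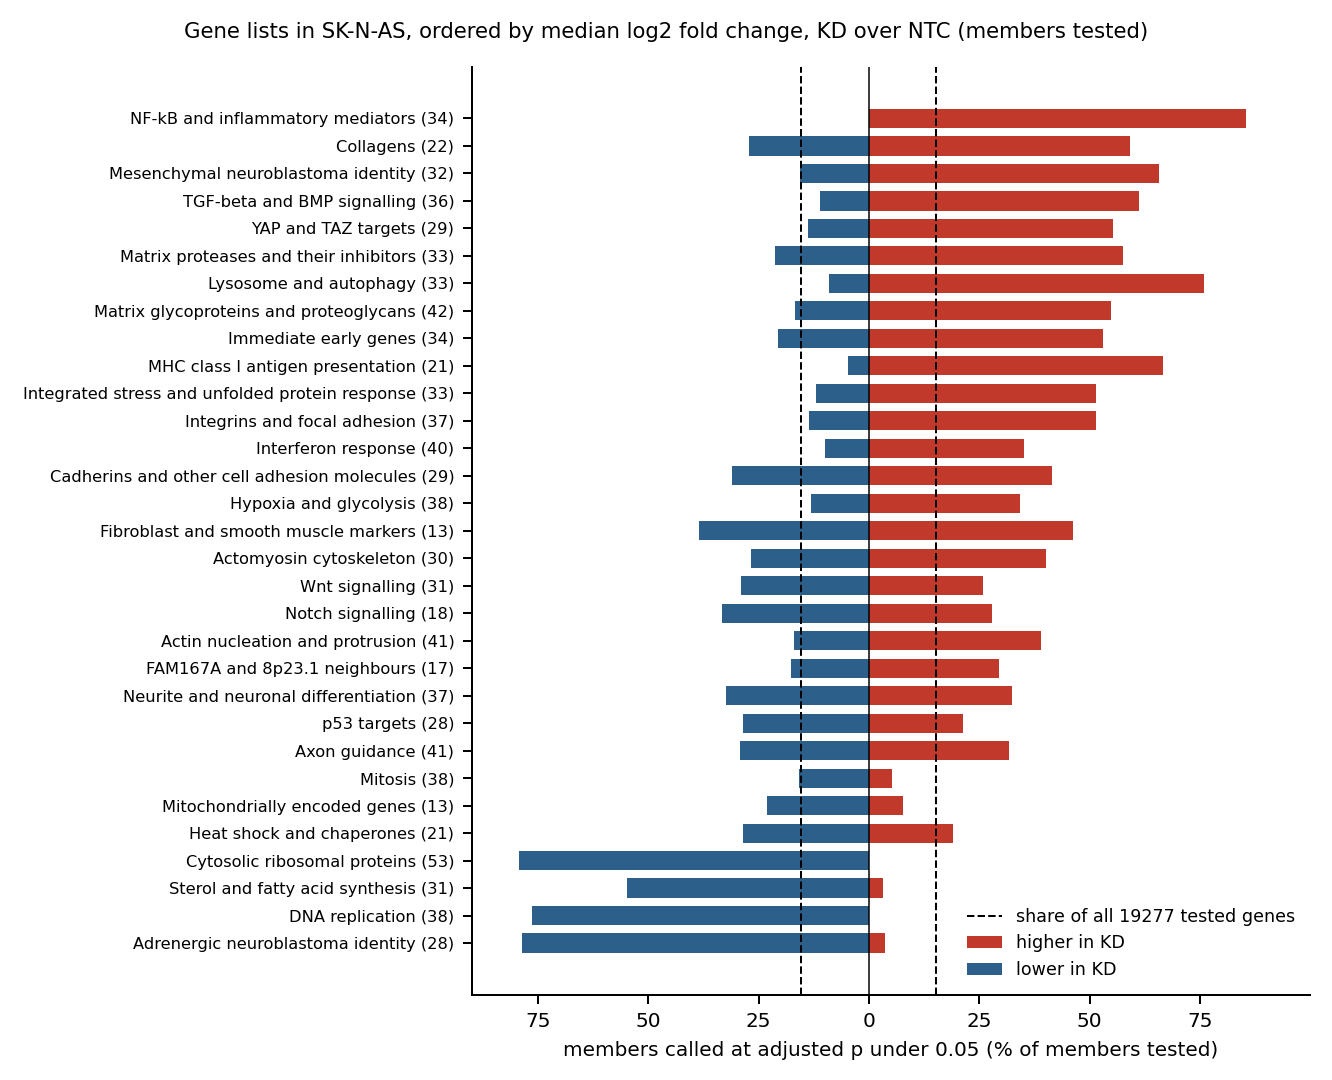
Share of tested members that rose (red, to the right) or fell (blue, to the left) in the gene lists reported here that have at least 13 tested members, ordered from the highest median log2 fold change, KD over NTC, at the top. Dashed lines give the shares over all 19277 tested genes, 15.2% up and 15.5% down. NF-kB genes stand at the top with 85.3% up, and adrenergic genes at the bottom with 78.6% down.

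Genes of matrix growth factor signalling rose in part. Of 36 tested TGF-beta and BMP genes 22 rose and 4 fell (median 0.28). Of the inhibitory SMADs, which dampen the pathway, SMAD6 rose 2.15-fold and SMAD7 1.93-fold (adjusted p = 2.43e-22 and 8.13e-20). GREM1, a secreted BMP antagonist, had 25.5, 26.3, 28.5 and 28.2 CPM in the KD libraries, against 9.79, 10.3, 11.2 and 10.3 CPM in the NTC libraries and rose 2.60-fold (adjusted p = 7.3e-20). The BMP ligand gene BMP7, chosen after its values were seen, fell (-1.75 ± 0.18). Of 29 tested YAP and TAZ targets 16 rose and 4 fell (median 0.25), in libraries where TEAD3 was nearly absent. IGFBP3, an insulin-like growth factor binding protein, had 63.8, 59.5, 57.1 and 60.2 CPM in the KD libraries, against 26.9, 23.6, 21.9 and 24.2 CPM in the NTC libraries and rose 2.49-fold (adjusted p = 2.22e-21), and the membrane repair gene MYOF rose 1.75-fold. Of the other TEAD genes, TEAD1 had 382, 386, 384 and 396 CPM in the KD libraries, against 334, 338, 342 and 337 CPM in the NTC libraries, and it rose slightly (0.20 ± 0.02). TEAD2 fell (-0.29 ± 0.03) and TEAD4 did not pass (0.06 ± 0.05, adjusted p = 0.346); the TEAD genes were looked at after TEAD3 was seen.

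Collagens split by chain. Of 22 tested collagen genes 13 rose and 6 fell (median 0.35). COL4A1 and COL4A2, which encode the chains of basement membrane type IV collagen, had the largest falls. COL4A1 had 7.52, 8.34, 7.18 and 7.42 CPM in the KD libraries, against 22.2, 23.06, 22.9 and 24.8 CPM in the NTC libraries, and COL4A2 had 9.49, 10.6, 11.6 and 11.4 CPM in the KD libraries, against 31.2, 32.6, 30.8 and 29 CPM in the NTC libraries. The falls were 3.03-fold and 2.87-fold (log2 fold change -1.60 ± 0.06 and -1.52 ± 0.06; adjusted p = 6.48e-21 and 6.7e-21). The fibrillar chain genes COL3A1 (0.47 ± 0.02) and COL5A1 (0.47 ± 0.03) rose, while COL1A1 fell (-0.52 ± 0.03). COL4A1 and COL4A2 are read in opposite directions from starts 126 bases apart in the RefSeq table (GRCh38.p14, chr13:110307158-110307283). The bases between the starts, picked for display after the values were seen, are shown on the plus strand because the genes share them; COL4A1 starts to the left and COL4A2 to the right, and capitals mark a GC box, GGGCGG on either strand, which 45.0% of all promoter windows hold.
COL4A1 to COL4A2: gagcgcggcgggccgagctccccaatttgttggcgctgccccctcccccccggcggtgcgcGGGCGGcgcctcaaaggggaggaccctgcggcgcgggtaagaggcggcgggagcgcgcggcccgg

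Of 42 tested matrix glycoprotein and proteoglycan genes 23 rose and 7 fell (median 0.19). EFEMP1, a fibulin of elastic fibres, had 152, 150.2, 157 and 160.2 CPM in the KD libraries, against 68.1, 65.1, 68 and 70.7 CPM in the NTC libraries and rose 2.27-fold (adjusted p = 2.5e-25). SPARC, a collagen-binding glycoprotein and one of the most abundant mRNAs here, had 3616, 3569, 3639 and 3632 CPM in the KD libraries, against 2317, 2242, 2310.3 and 2312 CPM in the NTC libraries and rose 1.57-fold (adjusted p = 2.42e-23). THBS4, a thrombospondin gene, rose 1.83-fold, against the fall of ELN. Of 33 tested matrix protease and inhibitor genes 19 rose and 7 fell (median 0.24). The serine protease gene HTRA1 had 122, 123, 120.1 and 128 CPM in the KD libraries, against 75.5, 64, 72 and 75.9 CPM in the NTC libraries and rose 1.71-fold (adjusted p = 5.86e-18). PLAU, the urokinase-type plasminogen activator, rose by 1.20 ± 0.06 on the log2 scale, and TIMP3, an inhibitor of matrix metalloproteases, fell (-0.80 ± 0.08); both were chosen after their values were seen.

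Of 37 tested integrin and focal adhesion genes 19 rose and 5 fell (median 0.13); without NTC library 2 the counts were 17 and 5. ITGB3, the beta 3 chain that pairs with alpha V, had 22.1, 21.4, 22.8 and 22.6 CPM in the KD libraries, against 7.90, 7.06, 8.13 and 6.19 CPM in the NTC libraries and rose 3.01-fold (adjusted p = 1.24e-19). The collagen-binding alpha chain ITGA11 had 511, 512, 514 and 506 CPM in the KD libraries, against 262, 234, 250.3 and 255 CPM in the NTC libraries and rose 2.03-fold (adjusted p = 2.26e-25). ITGA2, another collagen receptor chain, rose 1.53-fold and ITGAV, the alpha V chain, 1.40-fold (adjusted p = 6.7e-21 and 2.27e-16). TES, an adaptor of focal adhesions, went the other way (-1.01 ± 0.08; chosen after its values were seen).

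The MRCK kinase genes themselves moved little. CDC42BPA had 220.1, 219, 228 and 227 CPM in the KD libraries, against 210.4, 205, 224 and 212 CPM in the NTC libraries, and the groups overlapped (log2 fold change 0.07 ± 0.03, adjusted p = 0.0692). The adjusted p for CDC42BPA was under 0.05 in 5 of 16 alternatives: 0.0371 with upper-quartile scaling, 0.0324 with a filter at 1 CPM, 0.0422 with a replicate block, 0.0423 without KD library 2 and 0.0157 without NTC library 3. CDC42BPB had 192, 191, 185 and 188 CPM in the KD libraries, against 196, 195, 197 and 193 CPM in the NTC libraries, which lay below control in every KD library by a small margin and did not pass (log2 fold change -0.05 ± 0.03, adjusted p = 0.186). CDC42BPG, under 1 CPM, did not pass either (-0.53 ± 0.29, adjusted p = 0.185). CDC42EP4, an effector of CDC42, had 265, 265, 271 and 264 CPM in the KD libraries, against 199.5, 191, 187 and 195 CPM in the NTC libraries and rose (0.46 ± 0.03).

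Of 30 tested actomyosin genes 12 rose and 8 fell (median 0.05); without NTC library 2 the counts were 9 and 8. Of the tropomyosin genes, TPM1, which encodes a tropomyosin that coats actin filaments, had 389, 393, 396 and 390.5 CPM in the KD libraries, against 189, 179, 185 and 191 CPM in the NTC libraries and rose 2.11-fold (adjusted p = 1.12e-26), and TPM2 rose 1.86-fold (adjusted p = 2.93e-16). TPM4 rose by 0.06 ± 0.02 on the log2 scale and TPM3 did not pass (-0.01 ± 0.02, adjusted p = 0.726); TPM3 and TPM4 were chosen after their values were seen. MYH9, the heavy chain of non-muscle myosin IIA, rose (0.38 ± 0.03), while CNN3, a calponin, fell (-0.57 ± 0.03). Of 41 tested genes of actin nucleation and protrusion 16 rose (39%) and 7 fell (17.1%), against 15.2% and 15.5% of all tested genes (median of the list 0.02). MYO10, the myosin of filopodia, had 11.3, 11.8, 11.8 and 12.1 CPM in the KD libraries, against 5.34, 5.46, 5.40 and 6.01 CPM in the NTC libraries and rose 2.11-fold (adjusted p = 2.18e-14). The formin gene FMNL1 rose 2.03-fold, whereas FSCN1, which bundles actin in filopodia, fell (-0.33 ± 0.03), as did CYFIP2, a subunit of the WAVE complex (-0.87 ± 0.11).

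Neuronal genes moved in both directions. For the lists in this paragraph, the shares over all tested genes were 15.2% up and 15.5% down. Of 37 tested neurite and neuronal differentiation genes 12 rose and 12 fell (median -0.01). The neurofilament genes rose: NEFL had 82.5, 80.4, 82.7 and 88.4 CPM in the KD libraries, against 33.7, 33.8, 31.6 and 34.2 CPM in the NTC libraries, a rise of 2.51-fold, and NEFM rose 2.13-fold (adjusted p = 2.61e-24 and 3.6e-20). NPY, a neuropeptide gene, rose 1.67-fold, while DPYSL3, a relative of DPYSL5, had 352, 348, 350.3 and 349 CPM in the KD libraries, against 584, 573, 572 and 574 CPM in the NTC libraries and fell 1.65-fold (adjusted p = 5.18e-21 and 3.14e-23). Of 41 tested axon guidance genes 13 rose and 12 fell (median -0.02). The semaphorin co-receptor NRP1 (0.79 ± 0.03) and the SLIT receptor ROBO1 (0.56 ± 0.03) rose, and the ephrin receptor EPHB2 (-0.70 ± 0.04) and the secreted semaphorin SEMA3F (-1.66 ± 0.09) fell. Of 29 tested cadherin and cell adhesion genes 12 rose and 9 fell, with the neural adhesion gene NCAM1 up (0.64 ± 0.04) and CADM2 down (-1.67 ± 0.10). In Wnt signalling 8 of 31 rose and 9 fell, with the antagonist DKK2 lowest of the named members (-1.52 ± 0.09). In Notch signalling 5 of 18 rose and 6 fell, among them the ligand JAG1 (0.58 ± 0.05) and the transcriptional regulator HES6 (-0.84 ± 0.08).

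DNA replication genes fell by small amounts. Of 38 tested members 29 fell and none rose (median -0.17). E2F1, a transcription factor that drives S-phase genes, had 52.1, 48.6, 46.6 and 48.1 CPM in the KD libraries, against 65.5, 62.3, 64.1 and 68.4 CPM in the NTC libraries (log2 fold change -0.42 ± 0.04, adjusted p = 1.1e-10). The helicase subunit genes MCM2 (-0.26 ± 0.03) and MCM6 (-0.23 ± 0.03) and TYMS, thymidylate synthase (-0.20 ± 0.03), fell too. Of 38 tested mitosis genes 2 rose (5.26%) and 6 fell (15.8%), with a median of -0.03. Over all tested genes 15.2% rose and 15.5% fell, so the mitosis list fell about as often as all genes. Its members included the phosphatase CDC25B, up (0.19 ± 0.03), and the kinetochore gene CENPF, down (-0.12 ± 0.03). Of 28 p53 targets 6 rose and 8 fell; CDKN1A, the cyclin-dependent kinase inhibitor p21, had 33.8, 32.7, 31.3 and 31.6 CPM in the KD libraries, against 18, 17.5, 16.2 and 16.6 CPM in the NTC libraries and rose 1.90-fold (adjusted p = 5.29e-17). Cytosolic ribosomal protein genes fell in 42 of 53 cases and rose in none (1 rose with upper-quartile scaling), with a median of -0.10 and RPL27 as an example (-0.15 ± 0.02). Better-expressed genes were called more often: with the filter at 1 CPM in 4 libraries, 2847 of 14036 genes rose and 2685 fell. The share called in a list of abundant mRNAs therefore depends on level as well as on the response. Without NTC library 2 the counts were 28 down for DNA replication and 43 down for ribosomal proteins.

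Sterol and fatty acid synthesis genes fell in 17 of 31 cases and rose in 1 (median -0.14). Here and for the next lists, 15.5% of all tested genes fell and 15.2% rose. SREBF1, the factor that drives fatty acid synthesis, fell most among the named members (-0.45 ± 0.04), and the desaturases SCD (-0.27 ± 0.02) and FADS2 (-0.28 ± 0.02) and the synthase FASN (-0.26 ± 0.03) fell less. Lysosome and autophagy genes rose in 25 of 33 cases and fell in 3 (median 0.19). The membrane proteins LAMP1 (0.37 ± 0.03) and LAMP2 (0.36 ± 0.04), family members of LAMP5, rose, as did the autophagy receptor SQSTM1 (0.37 ± 0.03). Of 33 tested genes of the integrated stress and unfolded protein response 17 rose and 4 fell; SLC7A5, an amino acid transporter, rose by 0.73 ± 0.05 and the endoplasmic reticulum gene EDEM1 by 0.53 ± 0.04 on the log2 scale. Of 34 immediate early genes 18 rose and 7 fell, with the AP-1 subunit FOSL2 (0.45 ± 0.03), the factor KLF4 (0.97 ± 0.07) and the phosphatase DUSP6 (0.37 ± 0.03) up. Hypoxia and glycolysis genes rose in 13 of 38 cases and fell in 5, with the oxygen sensor EGLN3 at 0.98 ± 0.04. Of 21 tested heat shock genes 4 rose and 6 fell, and of 13 mitochondrially encoded genes 1 rose and 3 fell.

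Markers of other cell types were examined in the same libraries, where 15.2% of all tested genes rose and 15.5% fell. SOX10 and CD3E had 0 reads in all 8 libraries, CDH1 had 0 reads in KD and 2 in NTC, and CDH5 had 8 in KD and 6 in NTC. PTPRC, which encodes the leukocyte phosphatase CD45, was an exception, with 441, 436, 462 and 464 CPM in the KD libraries, against 517, 561, 552 and 536 CPM in the NTC libraries. It fell (-0.27 ± 0.03, adjusted p = 5.9e-10) and made up nearly all of the blood list's summed level of 437 to 465 CPM in KD, against 518 to 562 CPM in NTC. Of 4 tested blood markers PTPRC was the one that changed, and each of the others on that list had at most 145 reads over the KD libraries and 95 over the NTC libraries. In SK-N-SH the same gene had 20 reads over the KD libraries and 31 over the NTC libraries. Fibroblast markers were abundant and split, 6 up and 5 down of 13. DCN and LUM, proteoglycan genes that define the list, averaged 283 and 712 CPM in KD and 261 and 583 CPM in NTC. PDGFRA rose (0.83 ± 0.03) and FAP (-0.56 ± 0.03) and PDGFRB (-0.41 ± 0.03) fell. The list's summed level was 7400 to 7880 CPM in KD, against 8830 to 9360 CPM in NTC, and its part in the changes of matrix genes was not tested. Of 7 tested endothelial markers 2 rose, FLT1 (1.06 ± 0.06) and ROBO4 (1.32 ± 0.26), and none fell; the list summed to 24.5 to 26.1 CPM in KD, against 11.8 to 14.5 CPM in NTC. Epithelial markers (2 up and 2 down of 7) and Schwann cell markers (2 up and 1 down of 6) stayed at similar summed levels, 140 to 152 CPM in KD against 143 to 152 CPM in NTC and 43.4 to 49.5 CPM in KD against 41.4 to 45.9 CPM in NTC.

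Leaving out NTC library 2 changed which genes were called more than how many. Of the 5904 genes called with all 8 libraries, 478 were no longer called. Among the 19277 genes tested in both fits 427 others were gained. The fit without NTC library 2 tested 20210 genes, so some of its calls are of genes not tested with all 8 libraries. No called gene changed sign, and the genes lost had a median absolute log2 fold change of 0.145, with 1.66 as the largest. Leaving out NTC library 2 kept 91.9% of the 5904 calls, and leaving out any 1 other library kept 84.1% to 88%. In 2 called genes, the ion channel gene P2RX3 and TCIM, the estimate moved by more than 1.5-fold, with log2 fold changes of 2.81 and 2.63 without NTC library 2, against 1.69 and 1.96 with all libraries. The leading genes hardly moved: without it LAMP5 stood at -6.55, TEAD3 at -4.52, CEMIP at 2.39 and IL1B at 2.12. Among genes averaging 1 log2 CPM or more, 4 lay more than 2-fold below the other controls in NTC library 2, namely SLC1A7, NPB, SCART1 and UBASH3B, chosen after their values were seen, as were P2RX3 and TCIM. In SLC1A7 the level was 0.800 CPM in NTC library 2 and 2.70, 1.97 and 1.79 CPM in the other controls. Among list counts not yet given without it, TGF-beta and BMP genes had 21 up and 4 down, YAP and TAZ targets 15 up and 3 down, MHC class I genes 13 up and 1 down, and interferon genes 15 up and 4 down. Collagens kept counts of 13 up and 6 down, matrix proteases 19 up and 7 down, and immediate early genes 18 up and 7 down, while matrix glycoproteins had 24 up and 7 down. Lysosome genes had 22 up and 2 down, stress response genes 15 up and 4 down, sterol genes 2 up and 19 down, and hypoxia genes 15 up and 6 down. The 8p23.1 list had 4 up and 4 down. Apart from the actomyosin genes above, every other list reported stayed within 2 genes of its counts above in each direction. Genes changed at least 2-fold numbered 407 up and 218 down without NTC library 2 (20210 genes tested), against 366 and 210 with it (19277 genes tested).

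**Figure D5:**
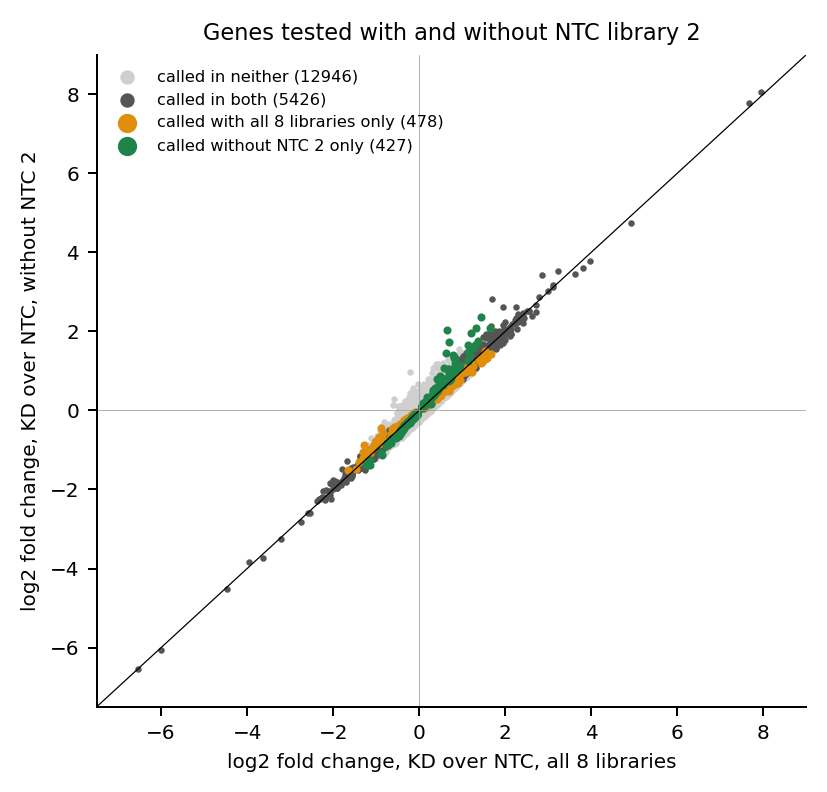
Log2 fold change, KD over NTC, without NTC library 2 (vertical axis) against that with all 8 libraries (horizontal axis) for 19277 genes. Dark points were called in both fits (5426), orange points with all libraries only (478) and green points without NTC library 2 only (427). Points lie along the diagonal line of equal values, and no called gene changes sign.

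The same guide target was used in SK-N-SH, with 3 KD and 3 NTC libraries, and an edgeR interaction term asked whether the response differed, with each line set against its own controls. Of 19862 genes, 6098 (30.7%) responded differently. The lines come from separate count tables, so line and table cannot be told apart. FAM167A fell by 3.00 log2 units less in SK-N-AS (-6.22 in SK-N-SH; difference 3.00 ± 0.12, adjusted p = 8.92e-26). In SK-N-SH, LAMP5 had 42 reads in KD against 533 in NTC, and TEAD3 had 2 reads in KD against 782 in NTC. The LAMP5 fall was larger in SK-N-AS (difference -3.02 ± 0.29, adjusted p = 8.11e-12) and the TEAD3 fall smaller (difference 3.93 ± 0.69, adjusted p = 1.19e-05). CEMIP had log2 fold changes of 2.42 in SK-N-AS and 2.54 in SK-N-SH (5654 reads in KD against 1067 in NTC), and the difference did not pass (-0.11 ± 0.08, adjusted p = 0.31). ELN fell in SK-N-AS and had a log2 fold change of 1.31 in SK-N-SH (difference -3.21 ± 0.08, adjusted p = 3.54e-27). SLC7A14 rose in SK-N-AS and stood at -1.85 in SK-N-SH (difference 4.35 ± 0.15, adjusted p = 4.11e-28). IL1B, GCG and LINC01915 had 0 reads in the SK-N-SH libraries, so their responses could not be compared.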

How the data were processed

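The members and gene lists were chosen with earlier results of these data known. Per the labels' protocols, the kit was Illumina Stranded mRNA Prep. The authors deposited raw read counts per gene, with a column per library. The submitters' processing notes list, without roles, featureCounts 1.5.1, STAR 2.6.1d, FastQC 0.11.8, CASAVA and bcl2fastq 2.20.0.422 and 2.20, with build GRCh38. They state neither annotation release nor strand setting. Of 78932 genes, edgeR's filterByExpr (minimum count 10, minimum total 15) kept 19277. Counts were scaled by TMM and tested with edgeR 4.0.16 (glmQLFit, robust, glmQLFTest; two-sided) in R 4.3.3, with Benjamini-Hochberg adjustment over all tested genes, a threshold of 0.05 and no fold threshold. The SK-N-SH CRISPRi counts entered the interaction test only. The steps were tested on simulated data.

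Named genes are FAM167A, its antisense gene, FAM167B, BLK and the MRCK genes; the changed genes with a symbol, an average of 1 log2 CPM or more and no overlap between groups that had the 10 highest and 10 lowest fold changes; and, per list, at most 4 called members, taken by adjusted p. Defining markers are named as such, and others are said to have been chosen after their values were seen. In total 36 lists of 1128 different genes were used, of which 1126 were found by symbol. Lists are described by counts and medians; 1 list and some genes are not reported here. Pairs of libraries of a group differed by more than counting noise (chi-square over degrees of freedom 4.03 to 8.05). Alternatives used DESeq2 1.42.0 and limma 3.58.1, other scaling, filters, thinned counts and left-out libraries.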

Additional observations from a re-analysis of the deposited data

Results flagged for a closer look

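Among 318 groups of 4 libraries examined for the named genes, 12 held a library that stood off from the other 3 relative to their spread. The rule is one under which chance marks about 1 in 20 groups. It can mark a small difference where the other 3 lie close together, as in TYMS (136.8 CPM against 135.99 to 136.1 CPM). The 12 marked groups are fewer than 1 in 20. In the KD group these were CDC42EP4 in library 3 (271 CPM), TYMS in library 1 (137 CPM), DLGAP5, a spindle gene, in library 4 (67.2 CPM), CENPF in library 1 (374 CPM), the chaperone gene DNAJB6 in library 3 (235 CPM) and PMP22, a myelin gene, in library 2 (35.6 CPM). In the NTC group they were CEMIP (16.3 CPM) and SPARC (2242 CPM) in library 2, RET in library 3 (960.5 CPM), and SLC16A3, a lactate transporter gene (35.9 CPM), RPL27 (691 CPM) and LAMP2 (86.6 CPM) in library 1. In CENPF the other KD libraries stood at 410.1 to 416 CPM and the means were 404 CPM in KD and 439.9 CPM in NTC. In PMP22 the other KD libraries stood at 40.2 to 41.1 CPM and the means were 39.3 CPM in KD and 34.4 CPM in NTC.

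Of 26 named genes, 15 responded differently in SK-N-AS and SK-N-SH (edgeR interaction, adjusted p under 0.05). Over all 19862 genes the share was 30.7%. Most of the 26 were chosen for large fold changes in the same SK-N-AS libraries, which favours a difference. The count of 15 is therefore no evidence that named genes differ more often than others. The difference, SK-N-AS minus SK-N-SH log2 fold change, was 3.00 for FAM167A, 3.93 for TEAD3 and -3.02 for LAMP5. It was 4.35 for SLC7A14, -3.21 for ELN, 2.23 for ZNF667 (adjusted p = 9.54e-16) and 1.96 for MMP1 (adjusted p = 3.56e-16). In CHGB it was -0.66 (adjusted p = 0.00106) and in DPYSL5 0.42 (adjusted p = 0.00312), both lower in KD in each line. For CDC42BPA it was -0.45 (adjusted p = 1.68e-09), with log2 fold changes of 0.07 in SK-N-AS and 0.52 in SK-N-SH, for CDC42BPB -0.34 (adjusted p = 8.67e-08) and for CDC42BPG 0.90 (adjusted p = 0.035). Few reads lie behind BLK (2.63, 12 KD against 52 NTC reads in SK-N-SH, adjusted p = 0.0126), AIM2 (3.35, 5 KD against 11 NTC reads, adjusted p = 0.000664) and NPTX1 (3.37, 3 KD against 4 NTC reads, adjusted p = 0.0247).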

How the results depend on the processing

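The count of 5904 changed genes was 5869 with DESeq2 size factors, 5820 with upper-quartile factors, 5900 by DESeq2, 6100 by limma voom with library weights, 5485 with no filter, 5532 with a filter at 1 CPM in 4 libraries and 5214 with libraries thinned to 29985858 reads. The library weights of limma voom were lowest for NTC library 1 (0.616) and stood at 1.02 for NTC library 2. Leaving out 1 library at a time gave 5149 to 5900 genes. No gene called with all libraries changed sign under any of these. Genes changed at least 2-fold fell to 264, 166 up and 98 down, with the filter at 1 CPM, which tests fewer genes (14036), against 576, 366 up and 210 down; leaving out 1 library gave 559 to 625. The 6098 genes that differ between lines were 6138 with DESeq2 size factors, 6065 with a filter at 1 CPM in 3 libraries and 6097 without NTC library 2. Replicate numbers 1 to 4 occur in both groups, and the labels do not say what a number shares. Same-numbered libraries did not deviate together (r of deviations across genes 0.0034, -0.033, 0.0047 and -0.0052). No pairing by number was thus seen, which does not show that the samples were unpaired. With a replicate block 5894 genes changed, 563 at least 2-fold (361 up and 202 down), and 6002 differed between lines. Of the list counts under alternatives, 1095 stayed within 1.5 times and 57 did not, each a count of 8 or fewer with all libraries. Of the values of named genes under alternatives, 37 lost their call (among them MT-ND3, MT-CO2, MT-CYB, KRT19 and ERBB3), 5 gained one (all CDC42BPA) and 2400 kept it; none reversed. Depth limits what can be said of genes under 1 CPM.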

Other observations

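The genes in this part were chosen after their values were seen. On 7q31 the adjacent expressed genes TES, CAV2, CAV1 and MET fell together. CAV1, the coat protein of caveolae, had 8.03, 7.55, 8.49 and 8.12 CPM in the KD libraries, against 18.2, 19.2, 16.9 and 17.3 CPM in the NTC libraries and fell 2.22-fold, and its partner CAV2 fell 2.18-fold (adjusted p = 1.43e-16 and 2.54e-12). MET, the receptor of hepatocyte growth factor, had 3.23, 3.98, 3.96 and 4.20 CPM in the KD libraries, against 7.21, 7.56, 7.62 and 7.28 CPM in the NTC libraries (log2 fold change -0.95 ± 0.09), and TES stood at -1.01 ± 0.08. The next expressed genes along the chromosome did not pass: CAPZA2, an actin capping gene, stood at -0.00 ± 0.03 and ST7 at -0.05 ± 0.06 (adjusted p = 0.559). On 13q33-34 the falls of EFNB2, an ephrin ligand gene (-1.17 ± 0.09), MYO16, COL4A1 and COL4A2 had others beside them. IRS2, an insulin receptor substrate gene between MYO16 and COL4A1, also fell (-0.49 ± 0.03), as did ENSG00000308820 beside it (-0.91 ± 0.09). Between EFNB2 and MYO16, ARGLU1 (0.24 ± 0.03) and LIG4, a DNA ligase gene (0.19 ± 0.05), rose.

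Chromosomes differed in balance. Of 1251 tested genes on chromosome 19, 105 rose and 285 fell, and of 943 on chromosome 7, 119 rose and 218 fell, while on chromosome 3 195 rose and 134 fell of 1021. In 1229 windows of 20 neighbouring genes that average 1 log2 CPM or more, the median log2 fold change ran from -0.19 to 0.20, and 5 of the 10 lowest windows lay on chromosome 7. Windows overlap, and no test was made.

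SMOC1, which encodes a secreted calcium-binding protein, had 112 reads over the KD libraries and 0 over the NTC libraries, at least 30.9-fold higher against a floor of 3 counts over the group. The long non-coding RNA LINC01701 had 135 reads in KD and 0 in NTC, at least 37.2-fold higher. Both stayed under 1 CPM in every library.

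IL33, a nuclear cytokine gene, had 24.6, 23.4, 27 and 26.3 CPM in the KD libraries, against 6.24, 7.13, 7.08 and 7.35 CPM in the NTC libraries. TNFSF14, the ligand LIGHT, rose 3.91-fold, IL7R, the interleukin-7 receptor, 3.48-fold and SERPINB2, a serine protease inhibitor gene, 3.02-fold (adjusted p = 3.44e-15, 2.84e-13 and 1.82e-18). SULT1B1, a sulfotransferase gene, had 24.8, 22.1, 26 and 25 CPM in the KD libraries, against 5.60, 5.33, 6.26 and 5.72 CPM in the NTC libraries. PXDN, a peroxidase that crosslinks type IV collagen, had 34.6, 34.8, 35.8 and 36.2 CPM in the KD libraries, against 123, 121, 124 and 128 CPM in the NTC libraries and fell 3.52-fold, next to the falls of COL4A1 and COL4A2 in the same libraries. INSM2, a neuroendocrine zinc finger gene, fell 3.26-fold and IGFBP2 3.32-fold (adjusted p = 1.33e-30 and 7.21e-25). Every KD library lay on 1 side of every NTC library in each of these genes.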
